A study of Mus musculus with 6 samples.

Results

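The mRNAs of the RNA exosome subunits were compared between WT and hnRNPL-deficient activated B cells. The members were the genes named *Exosc1* to *Exosc10* in the deposited table, 10 of 55421 genes, each present under 1 identifier. WT mice carried Rosa mT/mG and CD21-cre, and hnRNPL-deficient mice carried the same alleles with *Hnrnpl* F/F, all on C57BL6/J, so both groups carried the recombinase and the reporter. Mice of both sexes, older than 6 weeks, gave splenic B cells that were kept for 24 h with LPS at 5 µg/ml and IL-4 at 5 ng/ml. Cells positive for GFP, the sign that cre had been active, were then sorted, and 1 poly(A)-selected library was made per mouse, with 3 mice per group. CD21-cre acts mainly in mature B cells but is known to recombine in other tissues as well.

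The RNA exosome is the main 3′ to 5′ RNA degrading complex of animal cells. A ring of EXOSC4 to EXOSC9 is capped by EXOSC1, EXOSC2 and EXOSC3, and RNA is threaded through this barrel, which has no catalytic activity of its own in mammals. Cutting is done by DIS3, attached at the bottom of the barrel, and by EXOSC10, which sits on the cap of nuclear complexes. The complex trims ribosomal RNA and small nucleolar RNA and destroys nuclear noncoding RNA.

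*Hnrnpl*, the deleted gene, had 24371, 25580 and 24174 normalized counts in WT against 2178, 1519 and 1297 in hnRNPL-deficient cells, which fits the labels. Libraries held 40395186 to 75180749 reads on genes, and hnRNPL-deficient library 3 was the shallowest. A normalized count is the number of reads of a gene divided by the size factor of its library. The B cell markers summed to between 266462 and 350783 normalized counts in every library. Among the 6 markers *Cd22* (log2 fold change -0.55) and *Ms4a1* (-0.40) fell. The 6 T cell, 3 NK cell and 4 neutrophil markers each summed, as a list, to at most 38.4 normalized counts in any library, and *Ncr1*, *S100a8*, *S100a9* and *Elane* were at 0 in all. The 4 macrophage or monocyte markers summed to between 260.0 and 331.1 in WT and between 1239 and 1382 in hnRNPL-deficient libraries, nearly all of it *Adgre1*, which rose (log2 fold change 2.24) as 1 of the 2 tested genes of the list, and the part of this in the subunit values was not tested. The 5 erythroid markers summed to between 17.6 and 38.3 in WT and between 55.0 and 84.8 in hnRNPL-deficient libraries, and *Hbb-bt* rose (log2 fold change 1.82, limma adjusted p = 0.0235). The 4 plasma cell markers summed to between 14221 and 16488 in WT and between 13373 and 16508 in hnRNPL-deficient libraries, and *Jchain* fell (log2 fold change -2.31, limma adjusted p = 0.0509). The part of these markers in the subunit values was not tested either. *Xist* was high in 1 library of each group. In such bulk RNA, fewer cells of a kind and less RNA per cell cannot be told apart.

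Of the 10 subunits, 9 averaged 10 or more normalized counts over the libraries and were tested, and *Exosc6* was listed at 0 in all 6 libraries. The test was limma on log2(normalized count + 1), and a gene passed it at a Benjamini-Hochberg adjusted p under 0.1. Two-sided exact permutation of 3 against 3 libraries cannot give a p below 0.1, so single values rest on the limma fit. Of the 9 tested subunits 2 fell, *Exosc8* and *Exosc10*, beside 7.97% of all 17640 tested genes. No subunit rose in the limma fit at this threshold, beside 10.0% of all tested genes that rose. At an unadjusted p under 0.05, in edgeR and in DESeq2 0 rose as well, beside 2547, 1450 and 1605 of the 17640 tested genes. Among the 6524 tested genes with a mean between 783.4 and 8814 normalized counts, the range of the subunits, 11.1% fell. None of the subunits both passed the test and changed by 1.5-fold or more, as 4.08% of tested genes did downward and 7.28% upward. At an unadjusted p under 0.05, 4 of the 9 subunits were lower, beside 12.9% of tested genes. The log2 fold change was below 0 for 8 of the 9, with a median of -0.22, against a median of -0.03 over all tested genes. It was below 0 for 9304 of the 17640 tested genes and for 3770 of the 6524 in the subunits' range of means.

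**Figure D1:**
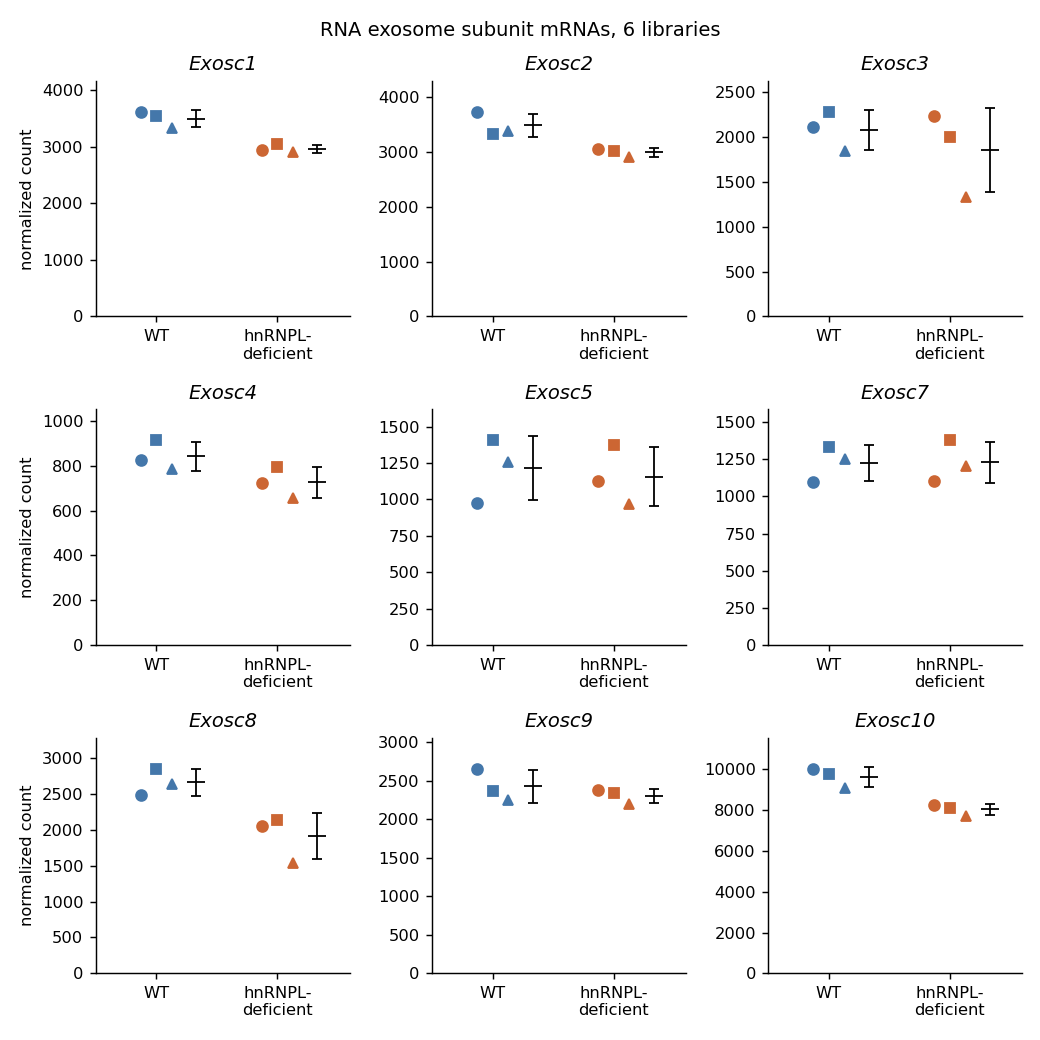
Normalized counts of the 9 tested subunits (y axis, linear, from 0) in the 3 WT libraries (blue) and the 3 hnRNPL-deficient libraries (orange). Circles, squares and triangles mark replicates 1, 2 and 3, which are separate mice, and bars give the mean ± SD. The groups of *Exosc1*, *Exosc2*, *Exosc8* and *Exosc10* do not overlap.

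The ring subunit *Exosc8* showed the lowest fold change of the complex. It had 2481, 2850 and 2641 normalized counts in WT and 2051, 2136 and 1539 in hnRNPL-deficient libraries. All hnRNPL-deficient values lay below all WT values, and hnRNPL-deficient library 3 was the lowest. The hnRNPL-deficient mean was 71.8% of WT (1909 ± 323.0 against 2657 ± 184.8, SD, n = 3 mice each). The log2 fold change was -0.49 (standard error, SE, 0.14, 95% interval -0.81 to -0.17, limma adjusted p = 0.0595). Without hnRNPL-deficient library 3 it was -0.34 (limma adjusted p = 0.09997). Without WT library 2 or WT library 3 it was -0.44 and -0.49, and the adjusted p of 0.175 and 0.157 no longer passed.

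*Exosc8* lies on chromosome 3 (54728678 to 54735393, minus strand, GRCm38), and its start is 146 bases from that of *Alg5*, a glucosyltransferase gene of the N-glycosylation pathway that is read in the other direction. *Exosc5* lies on chromosome 7 (25659164 to 25671368, plus strand) and starts 183 bases from *Bckdha*, a subunit gene of the branched-chain ketoacid dehydrogenase. The windows around these shared start regions are shown because the ratio of the pair within a library did not overlap between the groups in either case. They come from RefSeq (GRCm38.p6), run from 250 bases before to 50 bases after the RefSeq start, and are written 5′ to 3′ on the strand of the subunit. The capitals mark the bases between the annotated starts of the pair, 145 in the first window and 182 in the second.
Exosc8, chr3:54735315-54735614, minus strand: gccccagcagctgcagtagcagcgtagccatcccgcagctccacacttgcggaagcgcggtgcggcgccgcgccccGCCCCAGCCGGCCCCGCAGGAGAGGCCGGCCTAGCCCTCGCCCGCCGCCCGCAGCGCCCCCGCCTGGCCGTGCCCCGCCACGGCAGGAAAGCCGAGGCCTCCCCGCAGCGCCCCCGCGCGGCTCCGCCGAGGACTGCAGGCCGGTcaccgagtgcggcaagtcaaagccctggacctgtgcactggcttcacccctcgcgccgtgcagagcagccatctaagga
Exosc5, chr7:25658903-25659202, plus strand: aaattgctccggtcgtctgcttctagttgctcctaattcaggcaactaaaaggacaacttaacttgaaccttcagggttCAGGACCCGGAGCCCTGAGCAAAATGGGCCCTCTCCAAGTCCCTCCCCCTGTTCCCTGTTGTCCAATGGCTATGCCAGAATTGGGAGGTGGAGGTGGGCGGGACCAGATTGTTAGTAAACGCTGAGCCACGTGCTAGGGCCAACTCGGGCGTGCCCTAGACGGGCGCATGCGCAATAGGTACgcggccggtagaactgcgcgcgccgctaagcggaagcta
The *Exosc8* window held 36 CG dinucleotides and 75.7% G or C, and the *Exosc5* window 19 and 57.3%, against medians of 7 and 52.7% over all RefSeq windows.

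RefSeq windows were found for 8 of the 10 subunits, 9 windows in all since *Exosc10* has 2. The E-box CACGTG, which reads alike on both strands, occurred in the *Exosc5* window, 44 bases before the RefSeq start, and in none of the others, while 7.15% of the 32851 RefSeq windows hold it. The E2F motif TTTCGCGC, searched on both strands, occurred in none of them and in 0.323% of all windows. Such matches describe letters only.

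The neighbours of *Exosc8* and *Exosc5* were examined after the values had been seen. *Alg5* had 818.2, 789.4 and 682.1 normalized counts in WT and 780.7, 835.0 and 886.8 in hnRNPL-deficient libraries, and the groups overlapped. Its log2 fold change was 0.13 (SE 0.13, limma adjusted p = 0.546). The ratio of *Exosc8* to *Alg5* in the same library was 3.03, 3.61 and 3.87 in WT and 2.63, 2.56 and 1.74 in hnRNPL-deficient cells, without overlap (exact two-sided permutation p = 0.1, the smallest possible). *Bckdha* rose, from 564.0, 671.8 and 762.4 normalized counts in WT to 1203, 1170 and 830.6 (log2 fold change 0.67, SE 0.18, limma adjusted p = 0.0485). It passed in 2 of the 6 fits that each left out a library, with an adjusted p between 0.0242 and 0.133, and not without WT library 1 or 2 or hnRNPL-deficient library 1 or 2. The ratio of *Exosc5* to *Bckdha* was 1.73, 2.10 and 1.65 in WT and 0.938, 1.17 and 1.17 in hnRNPL-deficient libraries, again without overlap (exact two-sided permutation p = 0.1). Other subunits also start within 1000 bases of the start of an oppositely read gene, and none of these neighbours passed the test. *Exosc1* starts 57 bases from *Zdhhc16* (log2 fold change -0.00) and *Exosc7* 10 bases from *Zdhhc3* (-0.16) (limma adjusted p = 0.988 and 0.333). By its outermost annotated start, *Exosc3* starts 631 bases from *Dcaf10* (-0.27), and *Exosc4* starts 618 bases from *Oplah* (-0.03) (limma adjusted p = 0.142 and 0.972). Both pairs overlap at their starts, with 53 and 385 shared exonic bases on opposite strands, so no start region lies between the genes. The RefSeq window of *Exosc3* lies at 45320567 to 45320866, away from the start of *Dcaf10*. *Zdhhc3* and *Dcaf10* were lower without overlap. The ratios of *Exosc1* to *Zdhhc16*, *Exosc3* to *Dcaf10* and *Exosc7* to *Zdhhc3* overlapped between the groups (exact two-sided permutation p = 0.3, 0.9 and 0.6).

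**Figure D2:**
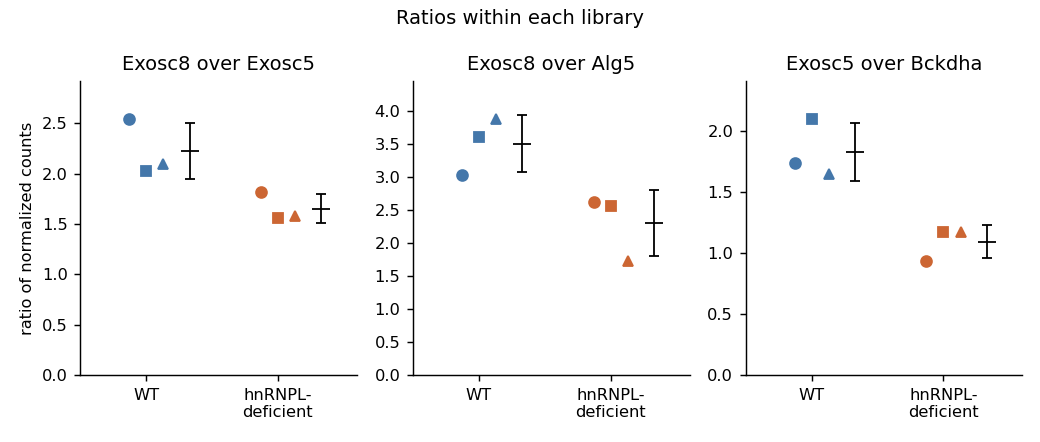
Ratios of normalized counts of 2 genes within each library (y axis, linear, from 0) for WT (blue) and hnRNPL-deficient libraries (orange), with the symbols of replicates 1 to 3 as circles, squares and triangles and bars for the mean ± SD. All 3 ratios were lower in each hnRNPL-deficient library than in any WT library, and the numerator and denominator are normalized counts not divided by length. Only ratios without overlap are shown, and the other ratios taken overlapped between the groups.

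*Exosc10*, the nuclear exonuclease of the complex, lies on chromosome 4 (148558429 to 148582401, plus strand). Its libraries held 10009, 9752 and 9062 normalized counts in WT and 8256, 8093 and 7709 in hnRNPL-deficient cells. The groups did not overlap, and the hnRNPL-deficient mean was 83.5% of WT (8019 ± 281.3 against 9608 ± 489.8, SD, n = 3 mice each). The log2 fold change was -0.26 (SE 0.09, 95% interval -0.46 to -0.06), and the adjusted p of 0.0994 from limma was just under the threshold. Leaving out any of the 6 libraries kept the direction (-0.30 to -0.23) and ended the call, with an adjusted p between 0.159 and 0.253, and edgeR and DESeq2 on 5 libraries gave 0.229 and 0.196.

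The 3 cap subunits, all with an S1 domain and some also with a KH domain, hold RNA at the entry of the barrel. None of them passed the test. *Exosc1* (chromosome 19) had 3615, 3548 and 3324 normalized counts in WT and 2939, 3043 and 2911 in hnRNPL-deficient libraries. These groups did not overlap, and the log2 fold change was -0.24 (SE 0.09, limma adjusted p = 0.133). *Exosc2* (chromosome 2) had 3733, 3337 and 3379 against 3061, 3010 and 2904, without overlap (log2 fold change -0.22, SE 0.09, limma adjusted p = 0.176). *Exosc3* (chromosome 4) had 2110, 2283 and 1847 against 2234, 2001 and 1332, so that only hnRNPL-deficient library 3 lay below WT. Its log2 fold change was -0.19 (SE 0.19, limma adjusted p = 0.549) and turned to 0.03 without that library.

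Counted over the complex, the groups did not overlap for 4 of the 9 tested subunits, all lower in hnRNPL-deficient cells, beside 16.3% of all tested genes and 20.5% of those in the subunits' range of means. The hnRNPL-deficient library 3 held the lowest of the 6 values for 8 of the 9 subunits, and for 25.6% of all tested genes. The subunit values summed to 27508, 27797 and 25795 normalized counts in WT and 23877, 24169 and 21430 in hnRNPL-deficient libraries.

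The ring is built of proteins related to bacterial RNase PH, and apart from *Exosc8* none of its tested subunits passed. *Exosc4* (chromosome 15) had 827.4, 913.9 and 783.9 normalized counts in WT and 723.9, 793.6 and 657.9 in hnRNPL-deficient libraries. The groups overlapped by 1 library, and the log2 fold change was -0.22 (SE 0.13, limma adjusted p = 0.325). *Exosc5* had 978.3, 1408 and 1260 against 1128, 1373 and 971.8 (log2 fold change -0.07, SE 0.18, limma adjusted p = 0.833). *Exosc7* (chromosome 9) had 1094, 1332 and 1250 against 1105, 1379 and 1206. Its log2 fold change of 0.00 had a 95% interval from -0.29 to 0.30, which leaves room for changes in either direction. *Exosc9* (chromosome 3) had 2659, 2374 and 2249 against 2378, 2339 and 2199 (log2 fold change -0.07, SE 0.10, limma adjusted p = 0.693). For *Exosc5*, *Exosc7* and *Exosc9* the difference between the group means was smaller than the SD of the WT mice, whereas for *Exosc4* it exceeded the SD of either group (841.7 ± 66.2 in WT against 725.1 ± 67.8, SD, n = 3 mice each) without passing the test.

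In the ring EXOSC8 contacts EXOSC5, and EXOSC4 contacts EXOSC9, as pairs. The ratio of *Exosc8* to *Exosc5* normalized counts, chosen after the values were seen, was 2.54, 2.02 and 2.10 in WT and 1.82, 1.56 and 1.58 in hnRNPL-deficient libraries, without overlap (log2 difference -0.42, exact two-sided permutation p = 0.1). The ratio of *Exosc4* to *Exosc9* was 0.311, 0.385 and 0.349 against 0.304, 0.339 and 0.299, and these groups overlapped (exact two-sided permutation p = 0.2).

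**Figure D3:**
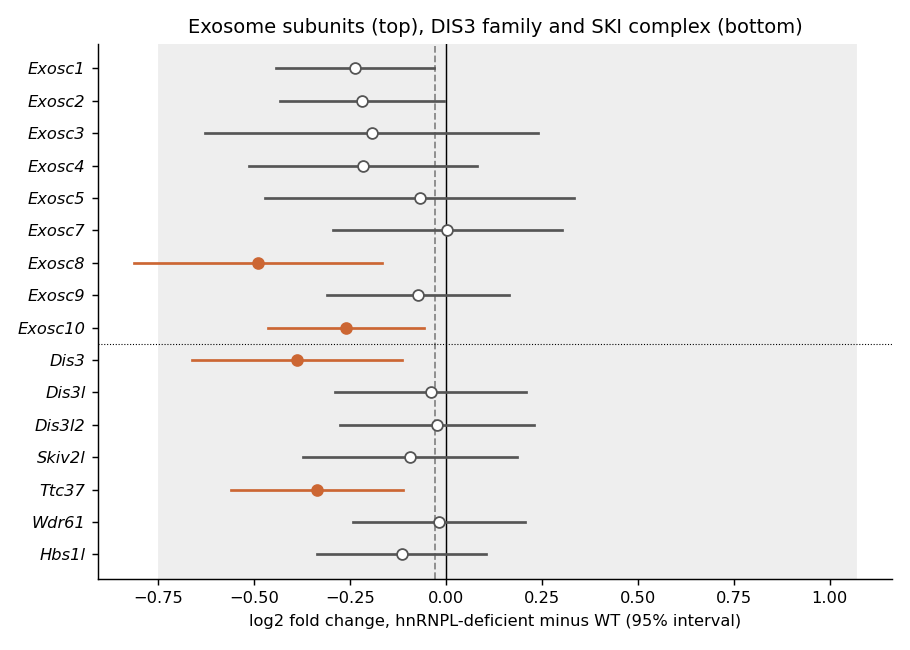
Log2 fold change (x axis, hnRNPL-deficient minus WT) with its 95% interval for the 9 tested subunits and, below the dotted line, the DIS3 family and the SKI complex. Filled orange points passed the test, the grey band runs from the 5th to the 95th percentile of all tested genes (-0.75 to 1.07) and the dashed line is their median, so that every point lies inside the band.

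*Exosc6*, the remaining ring subunit, could not be followed. It is a single-exon gene of 1326 bases on chromosome 8 (111056339 to 111057664, plus strand), and 100% of its exon lies within an exon of *Aars*, the alanyl-tRNA synthetase gene, on the same strand in the GENCODE annotation. Of 140 protein-coding genes wholly covered in this way, 135 (96.4%) were listed at 0 in all 6 libraries, against 5572 of 21335 other protein-coding genes (26.1%). A value of 0 here therefore gives no level of *Exosc6* mRNA. No other subunit shared exonic bases with a gene on its own strand, and reads were counted by strand.

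Levels were compared between subunits as normalized counts per kb of the principal transcript. In WT, *Exosc10* (3444 ± 175.6) and *Exosc1* (3434 ± 150.0) were the highest and did not differ beyond their spread. Next came *Exosc2* (2066 ± 129.3), *Exosc8* (2044 ± 142.2) and *Exosc3* (1931 ± 203.7), whose ranges overlapped. *Exosc9* (1501 ± 129.8), *Exosc7* (1164 ± 114.5), *Exosc5* (723.3 ± 129.8) and *Exosc4* (468.7 ± 36.9) followed (SD, n = 3 mice). Per kb of all annotated exons, *Exosc10* was still the highest (2673 ± 136.3), but *Exosc1* came only after *Exosc3* and *Exosc2* (862.5 ± 37.7) and *Exosc5* last (193.9 ± 34.8), so the order of the others depends on which transcripts are made.

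**Figure D4:**
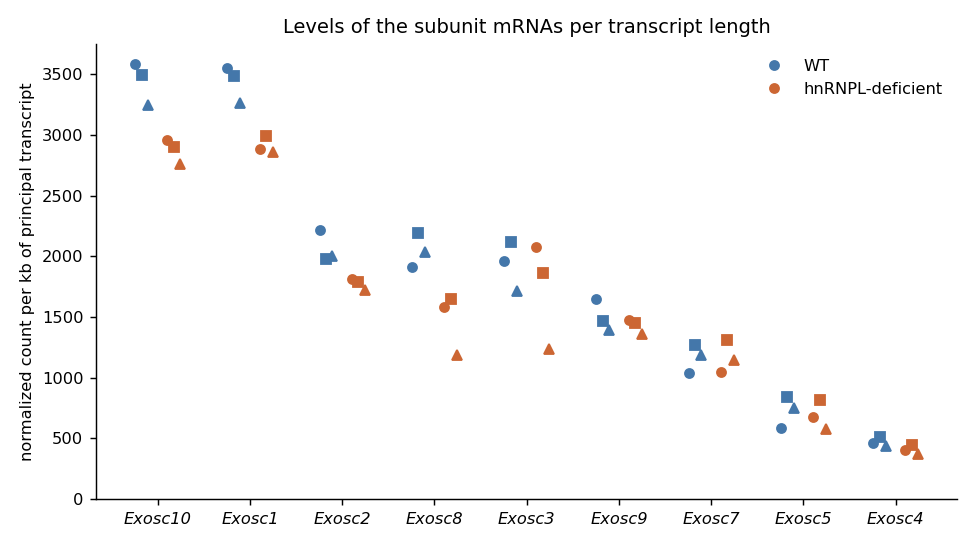
Normalized counts per kb of the principal transcript (y axis, linear, from 0) for each tested subunit, ordered by the WT mean, in WT (blue) and hnRNPL-deficient libraries (orange), with circles, squares and triangles for replicates 1 to 3. *Exosc10* and *Exosc1* stand at the top and *Exosc4* at the bottom in both groups.

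Each subunit was also expressed as a share of the summed counts per kb of the 9 subunits in its library. *Exosc8* made up 11.3%, 12.6% and 12.7% in WT and 10.6%, 10.8% and 8.96% in hnRNPL-deficient libraries, without overlap. The share of *Exosc10* was 20.5% ± 0.560 in WT and 19.9% ± 0.910 in hnRNPL-deficient cells, and that of *Exosc1* was 20.5% ± 0.441 and 20.2% ± 1.23 (SD, n = 3 mice each), which are within the spread. Since shares sum to a fixed total, they show unequal change and not which subunit moved. The study names *Exosc1* and *Exosc10* among genes with splicing changes in these cells, which counts per gene do not resolve.

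Outside the barrel, the catalytic subunit gene *Dis3* fell. It had 12751, 10484 and 9714 normalized counts in WT and 8857, 8425 and 7776 in hnRNPL-deficient libraries, without overlap (log2 fold change -0.39, SE 0.12, limma adjusted p = 0.0747). Leaving out any library other than WT library 3 ended the call, with an adjusted p of up to 0.166, and in edgeR (0.156) and DESeq2 (0.125). The cytoplasmic relatives *Dis3l* and *Dis3l2* had log2 fold changes of -0.04 and -0.02 (limma adjusted p = 0.843 and 0.916). The ratio of *Exosc10* to *Dis3* overlapped between the groups (0.785, 0.930 and 0.933 against 0.932, 0.961 and 0.991).

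Nuclear cofactors such as the helicase MTREX, the TRAMP and NEXT complexes, PABPN1 and the cap-binding complex bring RNA to the exosome. Of 19 such genes, 0 passed the test in either direction in limma, edgeR or DESeq2. In limma 7.97% of all tested genes were lower and 10.0% higher. At an unadjusted p under 0.05, 2 were lower and 0 higher, beside 2283 and 2547 of the 17640 tested genes. The median log2 fold change of the 19 was -0.12, against -0.03 over all tested genes. The lowest was *Tent4a*, a TRAMP poly(A) polymerase, at -0.36 (limma adjusted p = 0.133), and the highest *Zcchc7*, its RNA-binding partner, at 0.32 (limma adjusted p = 0.285). Leaving out 1 library gave at most 1 lower call. In the cytoplasm the SKI complex feeds mRNA to the exosome. Beside 7.97% of all tested genes, 1 gene fell among its 3 subunits and the bridging gene *Hbs1l*. This was *Ttc37*, the scaffold subunit, with 10787, 9806 and 9027 normalized counts in WT and 8039, 7465 and 7921 in hnRNPL-deficient libraries, without overlap (log2 fold change -0.34, SE 0.10, limma adjusted p = 0.063). It passed in 1 of the 6 fits that each left out a library, with an adjusted p from 0.0972 to 0.175, and not in edgeR (0.199) or DESeq2 (0.166).

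Other RNA decay genes were read against the 7.97% of all tested genes that fell and the 10.0% that rose. Of 17 tested 5′ to 3′ decay and decapping genes 1 fell, *Lsm2* (log2 fold change -0.49, limma adjusted p = 0.063), a ring subunit that also serves in the spliceosome, and the list's median was -0.10. It was lost in 5 of the 6 fits that each left out a library, all but that without hnRNPL-deficient library 2, with an adjusted p of up to 0.183. Of 16 deadenylase genes, *Cnot10* (-0.58, limma adjusted p = 0.00584) and *Cnot3* (-0.35, limma adjusted p = 0.0425) of the CCR4-NOT complex fell and *Tob1*, which recruits it, rose (0.94, limma adjusted p = 0.00779). *Cnot3* lost its call, with an adjusted p reaching 0.129, when either WT library 2 or 3, or the first hnRNPL-deficient library, was left out, whereas *Cnot10* and *Tob1* passed whichever library was left out.

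Ribosome assembly is where the exosome trims pre-ribosomal RNA. Of 41 ribosome biogenesis genes 20 fell and 0 rose in limma, beside 7.97% and 10.0% of all tested genes. At an unadjusted p under 0.05, in edgeR and in DESeq2 0 were higher as well, beside 2547, 1450 and 1605 of all tested genes. The list's median was -0.32, against -0.03 over all tested genes. The log2 fold change was below 0 for all 41, beside 9304 of the 17640 tested genes. *Wdr36*, a factor of the small subunit processome, had 9108, 9321 and 8419 normalized counts in WT and 1892, 1758 and 2209 in hnRNPL-deficient libraries (log2 fold change -2.20, limma adjusted p = 3.18e-05). *Pes1*, a large subunit assembly factor, was at -0.52 (limma adjusted p = 0.00806). Both passed whichever library was left out, while the number of the list's genes that fell ranged from 6 to 16 in those fits and was 15 in edgeR and 21 in DESeq2.

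**Figure D5:**
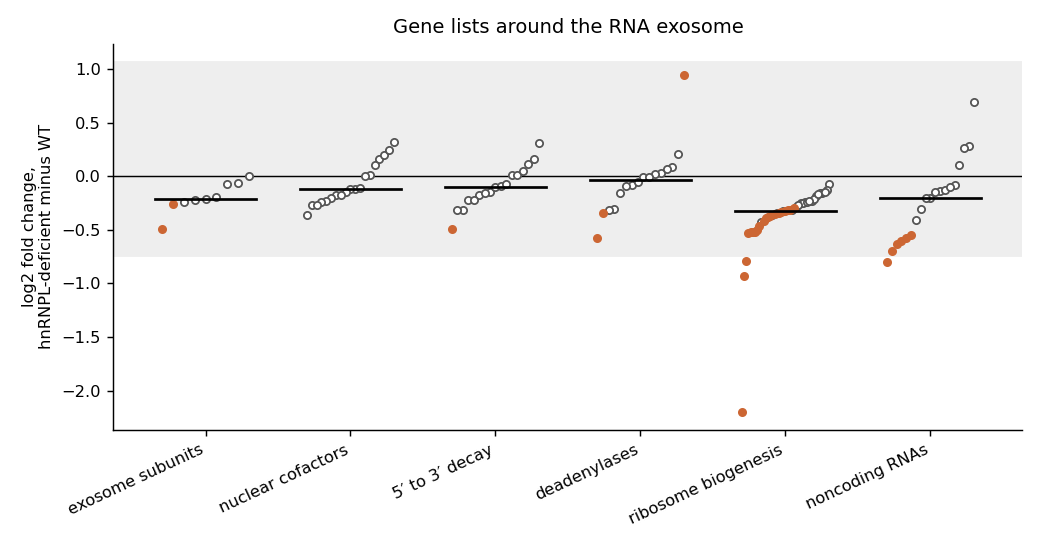
Log2 fold change (y axis, hnRNPL-deficient minus WT) of each tested gene in the exosome and 5 related lists, ordered by value within a list. Filled orange points passed the test, horizontal bars are medians (-0.22 for the subunits and -0.32 for ribosome biogenesis) and the grey band covers the 5th to 95th percentile of all tested genes.

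The last list held noncoding RNAs picked for a link to exosome processing or turnover, and whether the exosome acts on each of them was not tested. It covered 21 symbols, of which *Snhg7* was not matched, *Rmrp* and *Terc* did not reach the minimum and *Snhg4* has 2 rows. Of the 19 rows tested 6 fell and 0 rose in limma, beside 7.97% and 10.0% of all tested genes. At an unadjusted p under 0.05, in edgeR and in DESeq2 0 were higher as well, beside 2547, 1450 and 1605 of all tested genes. All 6 that fell were host genes of small nucleolar RNAs, which carry these RNAs in their introns. Host genes made up most of the list, and the other host gene rows, 1 of the 2 *Snhg4* rows among them, did not pass. *Snhg5* had 971.3, 1229 and 1048 normalized counts in WT and 601.3, 691.6 and 570.2 in hnRNPL-deficient libraries (log2 fold change -0.80, limma adjusted p = 0.00989). *Snhg8* had 859.9, 789.4 and 788.4 against 523.8, 531.1 and 445.5 (log2 fold change -0.70, limma adjusted p = 0.0131). The number that fell ranged from 3 to 8 when 1 library was left out. Of 146 tested genes annotated as snoRNA 5 fell and 0 rose, with a median of -0.16, and of 151 annotated as snRNA 1 fell and 1 rose, with a median of 0.01, so both sets had smaller shares of calls than all tested genes (7.97% lower and 10.0% higher). Poly(A) selection captures such RNAs poorly, so these values cover whatever part of them was carried through.

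*Exosc5* is the only subunit on the chromosome of the deleted gene, 3.14 Mb from *Hnrnpl* on chromosome 7. Within 5 Mb of *Hnrnpl*, 20.5% of 200 tested genes passed the test, against 17.8% elsewhere.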

How the data were processed

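Per the labels and the study's methods, the authors trimmed reads with fastp 0.23.1, aligned them to mm10 with STAR 2.7.9a, counted them by strand per GENCODE gene with featureCounts and deposited counts divided by DESeq2 1.38.2 size factors, a signal per gene and library. The deposited table also holds the authors' own DESeq2 comparison (a mean, log2 fold changes with errors, a test score, p-values and a call), which was not used. Whether reads in 2 genes were counted is not given in the sources used here.

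Genes with a mean of at least 10 were tested as log2(value + 1) with limma 3.58.1 in R 4.3.3, with a mean-variance trend and no other term. In each library 100% of values were whole multiples of 1 read (tolerance 0.1 reads). edgeR 4.0.16 and DESeq2 1.42.0 were run on the reads of 5 libraries. For hnRNPL-deficient library 2 a read is worth 1.01, too near 1 for the step to be checked automatically. The scripts were tested on simulated data. Coordinates, lengths and overlaps come from an earlier GENCODE release on the same build, and promoters from RefSeq.

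The members and lists were chosen with earlier results of these data known. All 10 subunits, *Hnrnpl* and the DIS3 family are named, and so are cofactors and SKI genes that passed. One further list and some single genes are not reported here. Of other lists, at most 2 genes in each direction are named, those with the lowest adjusted p. *Tent4a*, *Zcchc7*, *Aars*, the cell type markers and the neighbouring genes were named after their values were seen. Alternatives were other pseudocounts, filters, scalings, variance settings, thresholds and tools, a replicate block, and leaving out each library; a term for high *Xist* was added after seeing the data.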

Additional observations from a re-analysis of the deposited data

How the results depend on the processing

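The 2 lower subunits became 1 (*Exosc8*) with no filter on low values, equal library totals, quantile normalization, robust variance, library weights, a term for high *Xist*, edgeR and DESeq2. They became 0 with no mean-variance trend, at an adjusted p under 0.05 and with a 1.5-fold minimum, and 0 to 1 when each library was left out. *Exosc8* passed in 16 and *Exosc10* in 4 of 19 alternatives. The 2 lower genes of the DIS3 family, nuclear cofactors and SKI complex became 1 with no filter or quantile normalization, 0 with no trend, edgeR, DESeq2, an adjusted p under 0.05 or a 1.5-fold minimum, and 0 to 2 without 1 library. Over all genes, 1406 lower calls became 2125 with library weights, 924 in edgeR, 826 at an adjusted p under 0.05, 719 with a 1.5-fold minimum and 668 to 1056 without 1 library. The 1766 higher calls became 1177 at an adjusted p under 0.05 and 919 to 1478 without 1 library. The cause of these differences was not tested.

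With the replicate block, 4 subunits, 5 cofactor genes (and 1 higher) and 2918 lower and 2893 higher genes passed. Deviations of same-numbered libraries correlated at 0.43, 0.32 and 0.07, WT library 3 correlated better with hnRNPL-deficient library 2 (0.31), and the numbers were not taken to pair the mice.

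Signs reversed for 4 subunits, none of them past the test. When single libraries were left out, *Exosc3* ranged from -0.34 to 0.029 (the latter without hnRNPL-deficient library 3), *Exosc5* from -0.22 to 0.051 (above 0 without WT library 2, and without the third hnRNPL-deficient one) and *Exosc7* from -0.081 to 0.079. Library weights gave 0.0045 for *Exosc3*, 0.017 for *Exosc9* and -0.054 for *Exosc7*. *Exosc7* was at -0.0023 with quantile normalization, -0.048 in edgeR and -0.071 in DESeq2. At 3 mice per group, the 95% intervals of the subunits that did not pass reach from -0.63 to 0.33 on the log2 scale.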
